A study of Mus musculus with 3 samples.

Results

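The 10 genes described here encode DNA-binding factors that build the heart: the GATA zinc finger factors Gata4, Gata5 and Gata6, the homeodomain factors Nkx2-5, Isl1 and Meis2, the T-box factors Tbx5 and Tbx20, the basic helix-loop-helix factor Hand2 and the MADS-box factor Mef2c. They were taken by name as rows of the 3 count matrices, 10 of 36167 features, and all 10 were detected and passed the filter on low counts. Each matrix holds single-nucleus RNA from a pool of 22 to 24 aortic roots of mouse pups at postnatal day 1. The strain was B6.Cg-Scx<tm1.1(EGFP)Skom, which carries an EGFP knock-in allele of the tendon factor gene Scx, and every pool carries it. There was 1 group and no treatment, so classes of nuclei are what is compared, over 3 pools as replicates. The pools mix animals, so p-values measure the spread between these 3 pools and not between animals.

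GATA factors, NKX2-5, TBX5, TBX20, HAND2 and MEF2C bind each other and shared enhancers in cardiac muscle, and dosage changes in several of them cause outflow tract and valve defects. ISL1 marks progenitors of the second heart field, which give rise to the outflow tract, and is switched off in most of their descendants. MEIS2, a partner of PBX homeodomain proteins, acts in neural crest and outflow tract cells, GATA6 is also a factor of vascular smooth muscle, and MEF2C acts in muscle, endothelium and blood lineages. All values below are RNA in nuclei, so they say nothing of protein.

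The nuclei were those with at least 1000 unique molecular identifiers (UMIs, single captured RNA molecules) and at most 5% mitochondrial UMIs. The pools gave 7071, 3253 and 3749 such nuclei, and after removal of likely doublets 6473, 3098 and 3611 were analysed, with medians of 4283, 4756 and 3340 UMIs. The mitochondrial limit removed 28.6%, 41.8% and 14.1% of the deposited nuclei. Between 44 and 61 cell barcodes of each pool also occurred in another pool. Nuclei were clustered without the 10 genes, without a list of 40 partners and paralogues and without neighbouring antisense RNAs, and a cluster was named from markers listed for each cell type. The 10 named classes that entered the tests were smooth muscle-like (3241 nuclei), endothelial-like (2720), cardiomyocyte-like (2362), valve interstitial-like (1550), fibroblast-like (1116), mesothelial-like (365), macrophage-like (227), pericyte-like (136), lymphatic endothelial-like (116) and erythroid-like (77). The tissue label says valve, and the 2 valve interstitial-like clusters had 8 and 5 of 10 valve markers at least 2-fold above the other nuclei. They were 12.1% ± 1.23 (SD, n = 3 pools) of the nuclei analysed, so the label covers the wall, muscle and outer layers of the root as well. The 1120 nuclei of 2 further clusters stayed unnamed.

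Promoter windows of 250 bases before to 50 bases after the gene start were available for 7 of the 10 genes (RefSeq, build GRCm38.p6). Those of Hand2, Isl1, Nkx2-5 and Tbx20 are shown because Nkx2-5 set cardiomyocyte-like nuclei apart, Tbx20 valve interstitial-like nuclei and Isl1 single clusters, and because the Hand2 window also holds the start of the divergent noncoding RNA gene Hand2os1, described with it. The windows are chr8:57320733-57321032 on the plus strand for Hand2, chr13:116309639-116309938 on the minus strand for Isl1, chr17:26841516-26841815 on the minus strand for Nkx2-5 and chr9:24774254-24774553 on the minus strand for Tbx20. Each is written 5′ to 3′ in the direction of the gene, and capitals mark matches on either strand to the core motifs of the factors themselves.
Hand2: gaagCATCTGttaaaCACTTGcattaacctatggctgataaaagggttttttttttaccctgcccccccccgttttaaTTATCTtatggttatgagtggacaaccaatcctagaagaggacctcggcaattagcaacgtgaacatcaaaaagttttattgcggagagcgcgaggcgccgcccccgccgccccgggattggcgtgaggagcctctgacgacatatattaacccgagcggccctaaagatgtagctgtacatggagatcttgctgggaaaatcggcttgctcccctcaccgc
Isl1: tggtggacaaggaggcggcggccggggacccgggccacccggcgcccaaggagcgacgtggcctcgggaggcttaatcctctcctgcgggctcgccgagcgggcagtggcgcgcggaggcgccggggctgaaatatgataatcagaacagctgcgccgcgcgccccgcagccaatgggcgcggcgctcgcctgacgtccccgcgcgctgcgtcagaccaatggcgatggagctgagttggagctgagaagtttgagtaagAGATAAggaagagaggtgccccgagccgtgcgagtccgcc
Nkx2-5: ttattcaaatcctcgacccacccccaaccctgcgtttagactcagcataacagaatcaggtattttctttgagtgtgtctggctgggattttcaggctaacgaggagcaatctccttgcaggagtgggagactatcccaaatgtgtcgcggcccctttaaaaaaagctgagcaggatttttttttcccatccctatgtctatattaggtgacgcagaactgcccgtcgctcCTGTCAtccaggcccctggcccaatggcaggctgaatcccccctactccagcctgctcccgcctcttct
Tbx20: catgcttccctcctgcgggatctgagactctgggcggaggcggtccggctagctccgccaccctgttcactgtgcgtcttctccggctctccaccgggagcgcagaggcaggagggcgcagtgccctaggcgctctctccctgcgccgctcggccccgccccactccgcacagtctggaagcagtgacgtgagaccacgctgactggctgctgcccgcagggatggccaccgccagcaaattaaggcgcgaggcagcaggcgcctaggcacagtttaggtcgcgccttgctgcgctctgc

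The letters searched were AGATAA for GATA factors, GGTGTG for T-box factors, CAAGTG for NK2 factors, CTA and TAG with any 4 bases between for MEF2, TGACAG for MEIS and CATCTG for an E-box read by HAND factors. Of 32851 promoter windows of the same length, 11.18% held the GATA letters, 19.05% the T-box letters, 13.56% the NK2 letters, 3.686% the MEF2 letters, 19.18% the MEIS letters and 17.15% the E-box letters. The Hand2 window held 1 GATA match at position -172, 1 NK2 match at -235 and 1 E-box match at -246 from the Hand2 start, with none overlapping. The Hand2os1 start lies 124 bases upstream of the Hand2 start, on the opposite strand. The Isl1 window held 1 GATA match at position 10, the Nkx2-5 window 1 MEIS match at -19, and the Tbx20 window none of the 6 motifs. A match is a description of letters and not a binding site.

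Levels are given in CPM, the UMIs of a gene scaled to a common total over the summed nuclei of a class in a pool. They allow a gene to be compared between classes but not genes with each other. The erythroid-like class is an exception, as 5 erythroid markers held 509918 to 726393 CPM there, which lowers the CPM of its other genes. Tests are edgeR quasi-likelihood tests over 14195 genes with the pool as a block and Benjamini-Hochberg adjustment, and differences are log2 values with their standard errors on the scale of trimmed mean (TMM) normalisation. Scaling by library size alone moved the median gene of a class against the others by up to 0.27 on the log2 scale in the 6 classes described most, and in opposite directions for cardiomyocyte-like (-0.23) and endothelial-like nuclei (0.22). None of the 40 calls of a factor against the mean of the other classes in those 6 classes changed direction with it or with RLE scaling. In erythroid-like nuclei library size alone moved the median gene by -1.24. Each gene was tested between all 45 pairs of classes, and across those pairs between 6.23 and 68.7% of all genes passed, with a median of 30.9%. Of the 450 tests on the 10 factors, 247 passed, where 32.7% of the tests on all genes did. Of these 247, 227 also passed in the same direction with library size alone and 222 with RLE scaling, and 1 changed direction, Hand2 between endothelial-like and cardiomyocyte-like nuclei with library size alone. The pairs described that depend on the scaling are named as such.

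Gata4 RNA was highest in cardiomyocyte-like and valve interstitial-like nuclei. Cardiomyocyte-like nuclei held 677, 639 and 753 CPM in the 3 pools and valve interstitial-like nuclei 610, 619 and 647 CPM. Smooth muscle-like nuclei held 70.3, 88.7 and 112 CPM, below every pool of the fibroblast-like, pericyte-like, endothelial-like and mesothelial-like nuclei. The cardiomyocyte-like and valve interstitial-like pools overlapped in CPM. Cardiomyocyte-like nuclei passed as higher by 0.54 ± 0.17 on the TMM scale (adjusted p = 0.00695, edgeR), but not with library size alone (0.14, adjusted p = 0.514) or RLE scaling (0.34, adjusted p = 0.0763). Fibroblast-like nuclei followed at 480.3 ± 47.7 CPM, then pericyte-like at 364 ± 59.1, endothelial-like at 355 ± 29.1 and mesothelial-like at 318 ± 63.3 CPM (SD, n = 3). No pair of these 4 passed, though fibroblast-like nuclei passed against mesothelial-like with library size alone (0.62, adjusted p = 0.00514) and against endothelial-like nuclei with RLE scaling (0.45, adjusted p = 0.0318). The smooth muscle-like level was 2.77 ± 0.19 below the valve interstitial-like level on the log2 scale (adjusted p = 8.81e-16, edgeR). Gata4 passed in 35 of the 45 pairs.

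Gata6, the GATA paralogue also known from vascular smooth muscle, had a flatter order. Smooth muscle-like nuclei held 448, 512 and 532 CPM, cardiomyocyte-like nuclei 471, 421 and 451 CPM, and endothelial-like nuclei 463, 431 and 448 CPM. The pools of these 3 classes overlapped, and smooth muscle-like nuclei did not pass against cardiomyocyte-like (-0.19 ± 0.16, adjusted p = 0.332), endothelial-like or mesothelial-like nuclei in the edgeR test. Cardiomyocyte-like nuclei passed against endothelial-like nuclei on the TMM scale (0.41 ± 0.16, adjusted p = 0.0249, edgeR), but their means were 447.7 and 447.1 CPM, and the pair did not pass with library size alone (0.00087, adjusted p = 0.997) or RLE scaling (adjusted p = 0.169). Fibroblast-like nuclei held 300.2 ± 18.4 CPM, below each of those classes. They were 0.47 ± 0.17 below valve interstitial-like nuclei (adjusted p = 0.0451, edgeR), a call lost with library size alone (adjusted p = 0.109) and RLE scaling (adjusted p = 0.0585). Smooth muscle-like nuclei therefore held 497 ± 43.8 CPM of Gata6 and 90.2 ± 20.7 CPM of Gata4, while valve interstitial-like nuclei held 402 ± 15.5 and 625 ± 19.3 CPM. Reads of Gata6 and of its divergent neighbour Gata6os cannot be told apart for certain because the strand setting of the counting is not given in the sources used here.

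Gata5, the GATA paralogue of endocardium and epicardium, was sparse, with 375 UMIs in 323 of the nuclei analysed. Mesothelial-like nuclei, the class that includes the outer epicardial layer, held 24.9, 17.5 and 14.7 CPM, and endothelial-like nuclei 11.1, 15.04 and 8.47 CPM. The mesothelial-like level was 1.09 ± 0.26 above the endothelial-like level (adjusted p = 0.000563, edgeR), with 1 pool overlapping. Smooth muscle-like nuclei held 3.53 ± 1.14 CPM, and cardiomyocyte-like, valve interstitial-like and fibroblast-like nuclei between 0.81 and 1.38 CPM. No Gata5 UMI was counted in macrophage-like, pericyte-like, lymphatic endothelial-like or erythroid-like nuclei, where 3 UMIs would have been 2.47, 4.36, 4.26 and 10.9 CPM. Its antisense neighbour Gata5os had 30 UMIs in all.

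**Figure D1:**
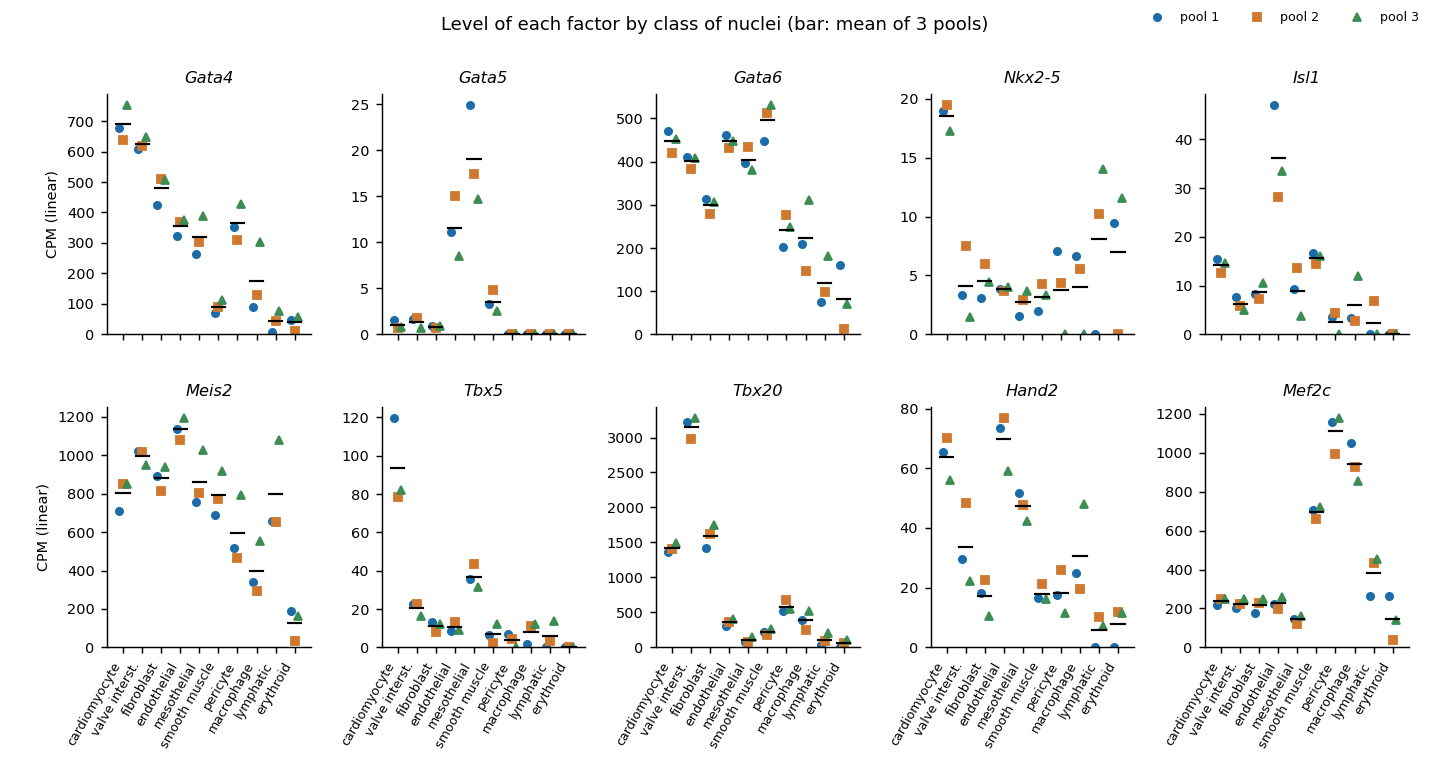
Level of each of the 10 factors (panels) in 10 classes of nuclei (x axis), in CPM on a linear axis (y axis), with 1 symbol per pool and a bar at the mean of the 3 pools. Tbx20 peaks in valve interstitial-like nuclei at a mean of 3156 CPM, Mef2c in pericyte-like and macrophage-like nuclei, and Gata4 is low in smooth muscle-like nuclei, where Gata6 has its highest mean.

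Nkx2-5, the NK2 homeodomain factor of cardiac muscle, was low in nuclear RNA and highest in cardiac muscle. Cardiomyocyte-like nuclei held 18.9, 19.5 and 17.3 CPM. Valve interstitial-like nuclei held 3.36, 7.50 and 1.44 CPM, fibroblast-like nuclei 3.06, 5.98 and 4.43 CPM, and endothelial-like nuclei 3.85, 3.65 and 4.05 CPM. Every pool of the cardiomyocyte-like class lay above every pool of the other 9 classes, which overlapped with each other. It was 2.66 ± 0.26 above endothelial-like nuclei (adjusted p = 8.0e-12, edgeR), and 8 of the 45 pairs passed, all with the cardiomyocyte-like class as the higher. The pair with erythroid-like nuclei, with 2 UMIs, did not pass (0.43 ± 1.03, adjusted p = 0.824, edgeR), and that with lymphatic endothelial-like nuclei was lost with library size alone (adjusted p = 0.0572). RNA released from cardiomyocytes was read from 10 cardiomyocyte markers, whose summed level in the other 9 classes was between 1.72 and 11.8% of the cardiomyocyte-like level. For Nkx2-5 that share was between 14.8 and 44.4%, the upper end resting on 5 UMIs in lymphatic endothelial-like nuclei. The part that such RNA has in the low Nkx2-5 values was not tested.

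Isl1, the LIM homeodomain factor of second heart field progenitors, was highest in endothelial-like nuclei. Their pools held 47.1, 28.3 and 33.5 CPM. Smooth muscle-like nuclei held 16.8, 14.3 and 16.1 CPM and cardiomyocyte-like nuclei 15.6, 12.6 and 14.7 CPM, all below the lowest endothelial-like pool. Endothelial-like nuclei were 1.15 ± 0.20 above smooth muscle-like (adjusted p = 3.8e-06) and 0.94 ± 0.19 above cardiomyocyte-like nuclei (adjusted p = 3.43e-05, edgeR), and the latter 2 classes did not pass against each other. Valve interstitial-like nuclei held 6.19 ± 1.39 CPM and fibroblast-like nuclei 8.75 ± 1.71 CPM, both below smooth muscle-like and cardiomyocyte-like nuclei by the same test. The endothelial-like and cardiomyocyte-like means came from a few clusters, as given below.

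Meis2, the TALE homeodomain factor, had class means between 792 and 1136 CPM in the 6 largest classes. Endothelial-like nuclei held 1137, 1076 and 1195 CPM, valve interstitial-like nuclei 1023, 1016 and 947 CPM, and smooth muscle-like nuclei 689, 770 and 916 CPM. The endothelial-like level passed against smooth muscle-like (0.46 ± 0.16, adjusted p = 0.0172) and fibroblast-like nuclei (0.41 ± 0.16, adjusted p = 0.0439, edgeR) but not against valve interstitial-like, mesothelial-like or cardiomyocyte-like nuclei. With library size alone it passed against cardiomyocyte-like (0.50, adjusted p = 0.0128) and mesothelial-like nuclei (0.41, adjusted p = 0.0484) and not against fibroblast-like nuclei (adjusted p = 0.108), and with RLE scaling it did not pass against fibroblast-like nuclei either (adjusted p = 0.0825). Macrophage-like nuclei held 395 ± 141 CPM and erythroid-like nuclei 129 ± 82.1 CPM. On the TMM scale their log2 differences from the mean of the other classes were nearer each other, at -1.12 ± 0.16 and -1.28 ± 0.27. Macrophage-like nuclei were below each of the 8 classes other than the erythroid-like, by 0.63 to 1.63 on the log2 scale. The pericyte-like pair was lost with library size alone (adjusted p = 0.0545).

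Tbx20, the T-box factor of chamber muscle and valve mesenchyme, was highest in the valve class. Valve interstitial-like nuclei held 3215, 2976 and 3278 CPM. Fibroblast-like nuclei held 1418, 1625 and 1751 CPM and cardiomyocyte-like nuclei 1365, 1410 and 1485 CPM. No pool of these 2 classes reached 2000 CPM, and their own difference of -0.29 ± 0.20 did not pass (adjusted p = 0.206, edgeR). The valve interstitial-like level was 1.04 ± 0.20 above fibroblast-like (adjusted p = 7.08e-05) and 0.76 ± 0.20 above cardiomyocyte-like nuclei (adjusted p = 0.000991, edgeR). Pericyte-like nuclei held 583 ± 83.2 CPM, endothelial-like 361 ± 48.6, smooth muscle-like 222 ± 39.9 and mesothelial-like 102 ± 42.2 CPM. Tbx20 passed in 36 of the 45 pairs, the most of any of the 10 factors.

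Tbx5, the T-box factor of atria, left ventricle and conduction tissue, was highest in 3 classes. Cardiomyocyte-like nuclei held 120, 78.6 and 82.3 CPM, mesothelial-like nuclei 35.4, 43.6 and 31.3 CPM, and valve interstitial-like nuclei 22.5, 22.5 and 16.6 CPM. The 3 classes did not overlap, and each step passed, by 1.47 ± 0.20 (adjusted p = 1.66e-08) and by 1.10 ± 0.27 (adjusted p = 0.000565, edgeR). The cardiomyocyte-like mean combines clusters that differ widely: the 202 nuclei of one held 724 CPM, while the 1593 of the largest held 50.4, 36.7 and 47.6 CPM, which overlap the mesothelial-like pools, and the 458 of another held 4.28 CPM. Fibroblast-like, endothelial-like and smooth muscle-like nuclei held 11.2 ± 2.78, 10.4 ± 2.66 and 7.02 ± 5.07 CPM, and no pair of them passed. The mesothelial-like level was 41.0% of the cardiomyocyte-like level, where the cardiomyocyte markers stood at 1.72%. With the strand setting not given in the sources used here, reads from an antisense or divergent neighbour of Tbx5 cannot be told apart from its own.

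Hand2, the basic helix-loop-helix factor of the second heart field and endocardium, was highest in 3 classes. Endothelial-like nuclei held 73.6, 76.8 and 58.9 CPM, cardiomyocyte-like nuclei 65.5, 70.2 and 56.1 CPM, and mesothelial-like nuclei 51.8, 47.5 and 42.3 CPM. The endothelial-like level exceeded the cardiomyocyte-like level in each of the 3 pools in CPM, whereas on the TMM scale the cardiomyocyte-like level was the higher by 0.28 ± 0.12 (adjusted p = 0.0351, edgeR). With library size alone the endothelial-like level was the higher by 0.13 (adjusted p = 0.310), and with RLE scaling the pair did not pass (adjusted p = 0.390), so the order of these classes for Hand2 depends on the scaling. Valve interstitial-like nuclei held 33.5 ± 13.5 CPM, 1.08 ± 0.15 below endothelial-like nuclei (adjusted p = 8.4e-08, edgeR). Smooth muscle-like, pericyte-like and fibroblast-like nuclei held between 17.2 and 18.4 CPM.

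Its divergent noncoding neighbour Hand2os1, also known as upperhand, held 735 CPM in cardiomyocyte-like and 537 CPM in endothelial-like nuclei against 96.6 CPM in mesothelial-like nuclei. The mesothelial-like class thus ranked beside the other 2 for Hand2 and not for Hand2os1. Across the 30 sums of class and pool the 2 RNAs had a Pearson r of 0.80 as a description, since the sums share pools and classes. Whether reads of one were counted for the other cannot be told apart with the sources used here.

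Mef2c, the MADS-box factor, was highest outside the heart muscle. Pericyte-like nuclei held 1156, 994 and 1179 CPM, macrophage-like nuclei 1052, 925 and 854 CPM, and smooth muscle-like nuclei 703, 659 and 720 CPM. Pericyte-like and macrophage-like pools overlapped and did not pass (0.25 ± 0.18, adjusted p = 0.423), while pericyte-like nuclei were 0.57 ± 0.17 above smooth muscle-like nuclei (adjusted p = 0.0223, edgeR). The border of these 2 classes depends on the clustering. With finer clusters 646 nuclei, led by genes of a smooth muscle-like cluster here, were named pericyte-like, beside 136 in the main class. The pericyte-like and smooth muscle-like pair was not refitted there. Lymphatic endothelial-like nuclei followed at 383 ± 105 CPM. Cardiomyocyte-like, endothelial-like, valve interstitial-like and fibroblast-like nuclei lay together between 217 and 238 CPM, 1.21 ± 0.16 or more below smooth muscle-like nuclei. On the TMM scale the cardiomyocyte-like level was 0.49 ± 0.16 above the endothelial-like (adjusted p = 0.0083, edgeR), a call lost with library size alone (0.08, adjusted p = 0.698) and RLE scaling (0.32, adjusted p = 0.0681). The means were 238 and 226 CPM, and endothelial-like nuclei were the higher in pools 1 and 3. Macrophage-like nuclei held 944 ± 99.9 CPM and cardiomyocyte-like nuclei 238 ± 16.9 CPM. The cardiomyocyte markers stood at 11.8% ± 7.71 of their cardiomyocyte-like level in macrophage-like nuclei, and their part in the Mef2c level was not tested.

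**Figure D2:**
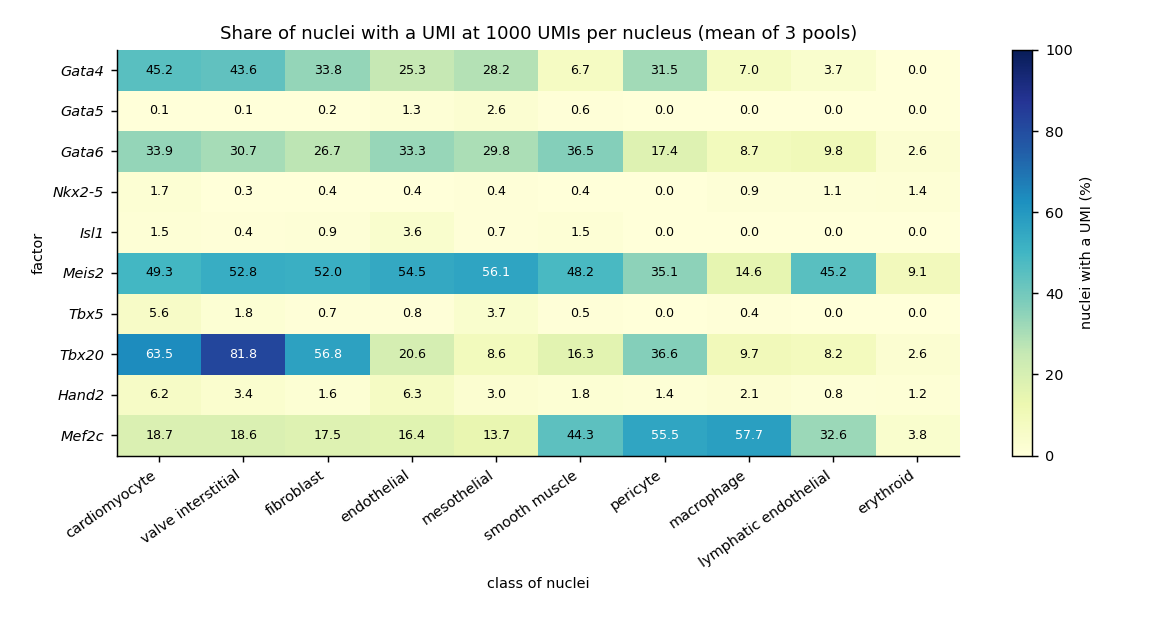
Percent of nuclei with at least 1 UMI of each factor (rows) in each class (columns) after every nucleus was thinned to 1000 UMIs, as the mean of 3 pools, with the colour scale from 0 to 100%. Tbx20 was seen in 81.8% of valve interstitial-like nuclei against 9.74% of macrophage-like nuclei, and Mef2c in 57.7% of macrophage-like nuclei.

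Shares of nuclei with a UMI were compared at equal depth. Thinned to 1000 UMIs, Tbx20 was seen in 81.8% ± 1.32 of valve interstitial-like, 63.5% ± 3.63 of cardiomyocyte-like and 56.8% ± 3.28 of fibroblast-like nuclei (SD, n = 3). In macrophage-like nuclei, used as the background class for factors other than Mef2c, it was 9.74% ± 0.50. Whether they read free RNA alone was not tested, and lymphatic endothelial-like nuclei held less Gata4 (42.9 ± 34.8 against 175 ± 113 CPM), Gata6 (119 against 222 CPM) and Tbx20 (112 against 388 CPM) than they did. Without thinning the 2 ends were 93.5% and 24.4%, at median depths of 3608 and 3434 UMIs. Gata4 was seen in 45.2% ± 6.10 of cardiomyocyte-like and 6.74% ± 1.75 of smooth muscle-like nuclei. The latter did not stand above the macrophage-like share of 7.03% ± 4.54, and the lymphatic endothelial-like share was 3.74%. The smooth muscle-like Gata6 share was 36.5% ± 2.28 against 8.69% ± 5.22 in macrophage-like nuclei. Nkx2-5 was seen in 1.75% ± 0.46 of cardiomyocyte-like nuclei and 0.88% ± 1.52 of macrophage-like nuclei, so detection per nucleus was too sparse to place it.

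The number of the 10 factors seen in a nucleus at 1000 UMIs was 2.34 ± 0.06 in valve interstitial-like and 2.26 ± 0.12 in cardiomyocyte-like nuclei. It was 1.90 ± 0.06 in fibroblast-like, 1.62 ± 0.06 in endothelial-like, 1.57 ± 0.10 in smooth muscle-like and 1.47 ± 0.08 in mesothelial-like nuclei, and 1.01 ± 0.10 in macrophage-like nuclei. At least 3 factors were seen in 42.2% ± 3.23 of valve interstitial-like and 41.2% ± 4.89 of cardiomyocyte-like nuclei. In nuclei thinned to 3000 UMIs, Gata4 and Gata6 occurred together in 56.3% ± 0.99 of cardiomyocyte-like nuclei, where the product of their shares was 56.4%. In endothelial-like nuclei Hand2 and Mef2c occurred together in 2.97% ± 0.71 where the product was 5.25%, and Gata4 and Hand2 in 10.7% ± 1.51 where the product was 7.96%. These are descriptions of sparse counts, and the clusters of the endothelial-like class differed in the same genes.

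Against the equally weighted mean of the other 9 classes, 8 of the 10 factors were higher and 0 lower in cardiomyocyte-like nuclei, where 34.1% of all genes were higher and 19.3% lower. Endothelial-like nuclei had 6 higher and 1 lower (23.3% and 9.28% of all genes), and valve interstitial-like nuclei 5 and 1 (20.6% and 9.32%). Mesothelial-like nuclei had 6 and 2 (34.6% and 14.7%), smooth muscle-like nuclei 4 and 3 (23.1% and 11.9%) and fibroblast-like nuclei 2 and 2 (19.7% and 8.31%). The median difference of the 10 was 1.94 in cardiomyocyte-like nuclei beside 0.16 over all genes, and 0.05 in smooth muscle-like nuclei beside 0.16. Among the small classes, macrophage-like nuclei had 1 higher and 3 lower (17.6% and 6.18%), pericyte-like nuclei 2 and 0 (8.49% and 1.94%), lymphatic endothelial-like nuclei 0 and 4 (14.7% and 6.31%) and erythroid-like nuclei 0 and 2 (1.99% and 3.02%). This contrast depends on which classes are among the others. With the 5 largest classes alone, Gata4 in endothelial-like nuclei went from a log2 difference of 0.62 to -0.17, and fibroblast-like nuclei had 9 called factors in place of 4. Each pair above sets a class against a single other class, but all pairs come from the fit of all classes and were not refitted with a class left out.

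Several of these calls lay close to the threshold. Mef2c in cardiomyocyte-like nuclei, not called at -0.29 (adjusted p = 0.0569, edgeR), passed as lower with RLE scaling (-0.55, adjusted p = 0.000257), with library size alone (-0.53, adjusted p = 0.00154), with DESeq2 (-0.55, adjusted p = 1.45e-06), at 2% mitochondrial UMIs (-0.51), without pool 2 (-0.37) and without the erythroid-like class (-0.26). The count of 0 lower factors there thus belongs to the main setting and does not hold under those listed. Tbx20 in endothelial-like nuclei, not called at -0.32 (adjusted p = 0.150, edgeR), passed as lower at 3000 UMIs, with doublets kept, without the lymphatic or the erythroid-like class and, at -1.13, with 2% mitochondrial UMIs. Gata6 in valve interstitial-like nuclei, called at 0.41 (adjusted p = 0.0144, edgeR), did not pass without the replicate block (adjusted p = 0.0676), without pool 2 (0.0694), with doublets kept (0.0753), with finer clusters (0.0782), at 2% mitochondrial UMIs (0.104) or without the lymphatic class (0.241). Nkx2-5 in smooth muscle-like nuclei, called lower at -1.05 (adjusted p = 0.0196, edgeR), did not pass without pool 1 (-0.51, adjusted p = 0.548), pool 2 (0.0599) or pool 3 (0.0667), nor under 6 other settings. Gata5 in smooth muscle-like nuclei, called at 2.55 with a class mean of 3.53 CPM beside 3.75 CPM in the others, did not pass with DESeq2 (0.71, adjusted p = 0.173), without pool 1 (0.0571), without pool 2 (0.0752) or with finer clusters (0.0529). Tbx20 in smooth muscle-like nuclei, called lower at -1.01, was at -0.34 with doublets kept (adjusted p = 0.124). Hand2 there, not called at -0.60 (adjusted p = 0.0532), passed as lower with RLE scaling, with DESeq2, at 3000 UMIs and without the lymphatic or the erythroid-like class (-0.62 to -0.84). Tbx5 in valve interstitial-like nuclei did not pass without pool 1 (1.41, adjusted p = 0.138), with DESeq2 (0.83, adjusted p = 0.0554), at 3000 UMIs (0.60, adjusted p = 0.181) or without the lymphatic class (1.53, adjusted p = 0.0584). The lower Hand2 call in fibroblast-like nuclei did not pass without pool 2 (adjusted p = 0.282) or pool 3 (adjusted p = 0.360), nor under 4 other settings.

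The partner list was fixed with earlier results of these data known, and 30 of its 40 genes passed the filter on low counts. In cardiomyocyte-like nuclei 14 were higher and 6 lower, where 34.1% of all genes were higher and 19.3% lower. Among the higher were Irx4, the ventricular Iroquois factor (47.0 CPM against 1.47 in the others, log2 6.32), and Myocd, the coactivator of SRF (2894 CPM against 209, log2 4.88). Endothelial-like nuclei had 13 higher and 7 lower (23.3% and 9.28% of all genes). Among the higher were Gata2, the endothelial GATA paralogue (95.7 CPM against 9.95, log2 5.02), and the forkhead factor gene Foxc1 (log2 3.24). Tbx1, a T-box factor of the second heart field, passed at log2 3.81 with 8.64 CPM, where the other classes had a mean of 15.1 CPM through 131 CPM in lymphatic endothelial-like nuclei. Valve interstitial-like nuclei had 8 higher and 6 lower (20.6% and 9.32% of all genes). There Tbx3 held 61.3 CPM against 10.2 (log2 4.44) and Gata3 83.6 CPM against 7.77 (log2 3.81), while Zfpm2, which encodes the GATA4 cofactor FOG2, was lower by 1.18 ± 0.13 on the log2 scale. All 15 called partners were higher in smooth muscle-like nuclei (23.1% of all genes were higher and 11.9% lower), led by Prdm6 (log2 3.73) and Foxc1 (log2 2.23). Mesothelial-like nuclei had 6 higher and 8 lower (34.6% and 14.7% of all genes), with the epicardial T-box gene Tbx18 at 505 CPM against 63.3 (log2 3.998). In either direction 14 of 30 partners were called there, no larger a share than the 49.3% of all genes. The medians of the partner list were 0.19, 0.36, 0.07, 0.54 and -0.08 in these 5 classes, beside 0.16, 0.19, 0.18, 0.16 and 0.28 over all genes. Fibroblast-like nuclei had 8 partners higher and 5 lower (19.7% and 8.31% of all genes), with a median of 0.20 beside 0.17 over all genes.

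Within the cardiomyocyte-like class, the 3 clusters with enough nuclei in every pool differed in Tbx5 and Isl1 above all. They are called by their leading genes, D830005E20Rik/Fgf13 (1593 nuclei), Lrrc4c/Erc2 (458) and Ryr3/Cpne5 (202). Lrrc4c/Erc2 had 7 of 10 cardiomyocyte markers raised, but its 10 leading genes held 0 of them and 1 neuron marker, Snap25. Without this cluster and a like one among smooth muscle-like nuclei, Isl1 in the cardiomyocyte-like class against the other classes went from a log2 difference of 2.03 to -0.68 (adjusted p = 1, edgeR). The class then had 7 factors higher and 1, Mef2c, lower. Gata5 was too low to be tested there, and 9 factors were tested in each cluster against the mean of the other 2. The calls were 3 higher and 1 lower in D830005E20Rik/Fgf13 (26.5% of 8969 genes passed), 4 higher and 3 lower in Lrrc4c/Erc2 (15.9%) and 2 higher and 5 lower in Ryr3/Cpne5 (30.2%).

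Tbx5 separated all 3 clusters. Its pools held 808, 678 and 686 CPM in Ryr3/Cpne5, 50.4, 36.7 and 47.6 CPM in D830005E20Rik/Fgf13, and 2.73, 7.53 and 2.59 CPM in Lrrc4c/Erc2, with no overlap. It was 5.66 ± 0.14 higher in Ryr3/Cpne5 (adjusted p = 3.64e-21) and lower in Lrrc4c/Erc2, at -5.49 ± 0.25 (adjusted p = 1.43e-15, edgeR). Isl1 went the opposite way. Lrrc4c/Erc2 nuclei held 72.8, 67.8 and 64.7 CPM of Isl1, D830005E20Rik/Fgf13 nuclei 1.53, 2.02 and 2.23 CPM, and Ryr3/Cpne5 nuclei 3.26 CPM in the first pool and none in the others. The Isl1 level in Lrrc4c/Erc2 was 5.22 ± 0.31 higher (adjusted p = 5.46e-13, edgeR), beside an endothelial-like class mean of 36.3 CPM. The lower Isl1 call in D830005E20Rik/Fgf13 (log2 -2.40, adjusted p = 0.0263, edgeR) rested on pool 1, without which it was -0.17 (adjusted p = 0.895).

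The remaining factors differed by smaller amounts. Tbx20 held 1866 ± 101 CPM in Lrrc4c/Erc2, 1376 ± 36.2 in D830005E20Rik/Fgf13 and 957 ± 86.9 in Ryr3/Cpne5. Gata4 was lower in Lrrc4c/Erc2 (490 ± 60.7 CPM, log2 -0.57 ± 0.08, adjusted p = 4.88e-06), where Gata6 was higher (506 ± 33.1 CPM, log2 0.46 ± 0.08, adjusted p = 0.000121, edgeR). Gata6 was lower in Ryr3/Cpne5, at 299 ± 26.0 CPM (log2 -0.78 ± 0.10, adjusted p = 3.67e-07, edgeR), where Gata4 held 718 ± 72.4 CPM and passed as higher with library size alone (0.26, adjusted p = 0.0160) but not on the TMM scale. Meis2 was higher in D830005E20Rik/Fgf13, at 917 ± 54.4 CPM (log2 0.91 ± 0.08, adjusted p = 8.04e-10, edgeR), and Mef2c was lower in Ryr3/Cpne5, at 159 ± 60.1 CPM. Nkx2-5 held 36.7 ± 6.72 CPM in Ryr3/Cpne5 against 15.4 ± 0.99 and 17.4 ± 7.07 CPM (log2 1.11 ± 0.30, adjusted p = 0.0050, edgeR). Without pool 1 its adjusted p was 0.0879. The lower Meis2 call in Lrrc4c/Erc2 (log2 -0.34, adjusted p = 0.00641) did not pass without the replicate block (adjusted p = 0.190) or without pool 1 (adjusted p = 0.115). Hand2 passed in none of the 3 clusters.

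**Figure D3:**
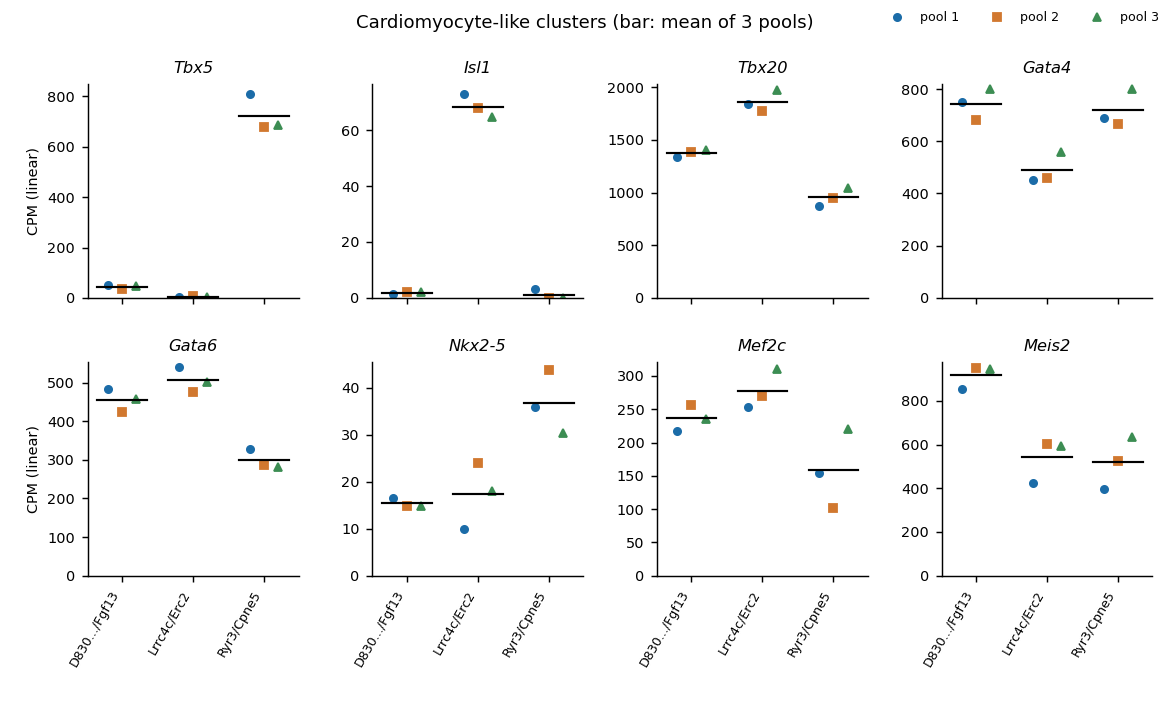
Level of 8 factors (panels) in the 3 cardiomyocyte-like clusters (x axis, called by their leading genes), in CPM on a linear axis (y axis), with 1 symbol per pool and a bar at the mean. Tbx5 is at 724 CPM in Ryr3/Cpne5 and Isl1 at 68.4 CPM in Lrrc4c/Erc2, with no pool of another cluster near either.

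Of the partners, 24 were tested between these clusters. In Ryr3/Cpne5 7 were higher and 8 lower, in Lrrc4c/Erc2 7 and 5, and in D830005E20Rik/Fgf13 7 and 6. In these clusters 30.2%, 15.9% and 26.5% of all genes passed in either direction. In Ryr3/Cpne5, Tbx3 held 149.8 CPM (log2 5.95 ± 0.28), and the Iroquois genes Irx5 (log2 4.16) and Irx3 (log2 2.73) were higher. In Lrrc4c/Erc2, Tbx2 (log2 1.93) and Prdm6 (log2 1.60) were higher and the ventricular genes Irx4 and Hey2 lower, at log2 -1.57 and -1.84. In D830005E20Rik/Fgf13, Hey2 held 185 CPM (log2 3.75) and Irx4 57.2 CPM (log2 1.62). Irx3, Irx5, Tbx2 and Prdm6 fall outside the naming rule and were chosen after their values were seen. Muscle genes looked at afterwards, with no test, were Myl7, an atrial light chain in the mature heart, at 1399 ± 592 CPM in Ryr3/Cpne5 against 34.3 and 61.6 CPM, and the atrial hormone gene Nppa at 410.4 ± 206 CPM against 37.8 and 14.8 CPM. The ventricular light chain gene Myl2 held 1313 ± 323 CPM in Ryr3/Cpne5 and 1636 ± 166 in D830005E20Rik/Fgf13, so neither cluster was without it. Lrrc4c/Erc2 nuclei held 615 ± 138 CPM of Myl2. The ventricular genes did not share an order, as Myl3, another ventricular light chain gene, held 588 ± 175 CPM in Ryr3/Cpne5, 458 ± 60.2 in D830005E20Rik/Fgf13 and 458 ± 109 in Lrrc4c/Erc2, and the slow myosin heavy chain gene Myh7 held 480.1 ± 52.7, 226 ± 44.3 and 354 ± 80.4 CPM. Sln, an atrial regulator of the calcium pump, held 160.2 ± 59.8 CPM in Ryr3/Cpne5 against 4.17 and 18.2 CPM, and the pacemaker channel gene Hcn4 63.5 ± 35.9 against 3.24 and 12.5 CPM.

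The endothelial-like class also split by these factors. The 6 clusters tested held 777 (Rtl4/Cytl1), 752 (Grid1/Col23a1), 420 (Kcnc2/Fam155a), 255 (Dlgap2/Cntnap5a), 238 (Mannr/Ptchd1) and 225 nuclei (Pcdh17/Aplnr), and 9 factors were tested in each, Nkx2-5 being too low. Of the 54 tests 34 passed.

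Kcnc2/Fam155a nuclei, whose leading genes include Wnt9b and Wnt4, had 6 factors higher and 2 lower (23.9% of 10216 genes passed). Gata4 held 697, 674 and 663 CPM there, where its cardiomyocyte-like mean was 689.6 CPM, and was 1.96 ± 0.12 higher than in the other endothelial-like clusters (adjusted p = 1.42e-12, edgeR). Gata5 held 35.7, 31.3 and 23.7 CPM (log2 2.79 ± 0.34, adjusted p = 3.57e-07), Tbx5 31.5, 41.0 and 23.7 CPM (log2 2.71 ± 0.38, adjusted p = 3.17e-06) and Tbx20 651, 649 and 654 CPM (log2 1.36 ± 0.13, adjusted p = 3.62e-09, edgeR). Meis2 at 1730 ± 208 CPM and Hand2 at 103 ± 28.6 CPM were the other higher factors. Gata6 was lower, at 239 ± 28.5 CPM (log2 -0.63 ± 0.09, adjusted p = 8.13e-06, edgeR). The other lower call, Isl1 (log2 -1.53, adjusted p = 0.0217, edgeR), did not pass without pool 1 (log2 -0.78, adjusted p = 0.606) or without pool 2 (adjusted p = 0.0580).

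Rtl4/Cytl1 nuclei, the largest of these clusters, had 3 factors higher and 0 lower (20.4% of genes passed). Isl1 held 104, 86.0 and 86.3 CPM there, above every pool of the other 9 tested classes, and was 3.83 ± 0.22 higher (adjusted p = 2.9e-13, edgeR). Gata6 held 710, 648 and 728 CPM (log2 1.28 ± 0.08, adjusted p = 7.15e-13), and Meis2 1262 ± 68.2 CPM (log2 0.82 ± 0.12, adjusted p = 3.87e-06, edgeR). Gata4 held 216 ± 40.3 CPM and did not pass. Hand2, at log2 -0.60 ± 0.23, lay just outside the threshold (adjusted p = 0.0589, edgeR). Tbx18 was the partner with the largest difference there, at 73.0 CPM (log2 2.52).

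Grid1/Col23a1 nuclei had 6 factors higher and 1 lower (27.2% of genes passed), with Gata4 at 432 ± 31.2 CPM, Gata6 at 517 ± 18.5, Isl1 at 32.8 ± 9.32 and Hand2 at 93.8 ± 8.25 CPM. Their Mef2c level was low, at 64.9 ± 16.7 CPM (log2 -1.74 ± 0.15, adjusted p = 5.22e-10, edgeR). The Gata5 call in this cluster, at log2 1.51 ± 0.38 and 14.6 ± 7.15 CPM, did not pass without pool 1 (adjusted p = 0.0870) or without pool 2 (adjusted p = 0.0558). Dlgap2/Cntnap5a nuclei had 2 factors higher and 3 lower (23.4% of genes passed). They held the highest endothelial-like Hand2 level, 112, 161 and 118 CPM, with Hand2os1 at 906, 1140 and 1070 CPM, and the lowest Mef2c level, 42.0 ± 13.9 CPM (log2 -2.67 ± 0.20, adjusted p = 3.47e-11, edgeR). The lower Gata6 call (log2 -0.28, adjusted p = 0.0443, edgeR) did not pass with DESeq2 (adjusted p = 0.0599), with library size alone (adjusted p = 0.128), without the replicate block (adjusted p = 0.135) or without any 1 pool (adjusted p between 0.0720 and 0.389). Foxc2 held 122 CPM there (log2 2.66).

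Mannr/Ptchd1 nuclei, whose leading genes include the arterial genes Gja5 and Sema3g, had 2 factors higher and 3 lower (22.2% of genes passed). Gata4 held 27.6, 59.9 and 21.4 CPM there (log2 -2.98 ± 0.24, adjusted p = 1.1e-10, edgeR), and Hand2 13.5 ± 8.20 CPM (log2 -2.23 ± 0.36, adjusted p = 2.45e-05, edgeR). Mef2c was higher, at 515 ± 70.4 CPM (log2 1.86 ± 0.12, adjusted p = 1.37e-12, edgeR), beside the Notch target gene Hey1 at 45.7 CPM (log2 3.29). Pcdh17/Aplnr nuclei, whose leading genes include the capillary genes Gpihbp1 and Fabp4, had 1 factor higher and 5 lower (28.3% of genes passed). Mef2c held 917, 732 and 754 CPM (log2 2.59 ± 0.11, adjusted p = 1.88e-16, edgeR). Gata6 was lower at 170, 124 and 123 CPM (log2 -1.54 ± 0.12, adjusted p = 4.44e-11) and so was Meis2 at 244 ± 127 CPM (log2 -2.09 ± 0.16, adjusted p = 8.65e-11, edgeR). Of the 5 lower calls, Gata5 (log2 -2.27, adjusted p = 0.0445) did not pass with DESeq2 (adjusted p = 0.0971), with library size alone (adjusted p = 0.0506), without the replicate block (adjusted p = 0.0503) or without any 1 pool (adjusted p between 0.0571 and 0.317). Isl1 (log2 -1.82, adjusted p = 0.0265) did not pass without the replicate block (adjusted p = 0.0563) or without pool 1 (adjusted p = 0.273).

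Across the 6 clusters, the 3 with the highest Hand2 were the 3 with the highest Gata4, and the 2 with the highest Mef2c were the 2 with the lowest Gata4. Hand2os1 followed Hand2, with 614 to 1038 CPM in the first 3 clusters and 62.3 to 271 CPM in the other 3. This order is a description over 6 clusters of the same 3 pools.

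**Figure D4:**
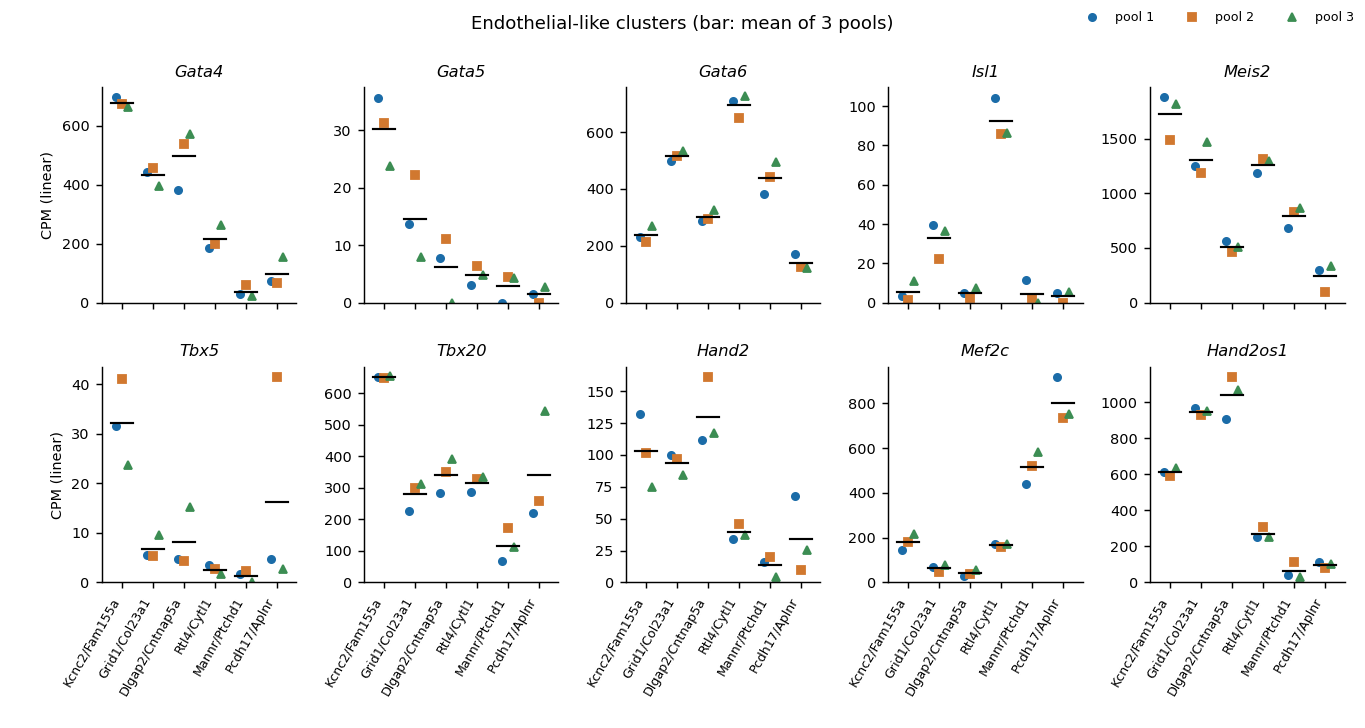
Level of 9 factors and of Hand2os1 (panels) in 6 endothelial-like clusters (x axis, called by their leading genes), in CPM on a linear axis (y axis), with 1 symbol per pool and a bar at the mean. Isl1 peaks at 92.2 CPM in Rtl4/Cytl1, Gata4 at 678 CPM in Kcnc2/Fam155a and Mef2c at 801 CPM in Pcdh17/Aplnr.

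The 2 valve interstitial-like clusters were compared directly, Rmst/Pcdh15 (927 nuclei) with Ctnna2/Abi3bp (623 nuclei). Of 7 factors tested, 1 was higher and 3 lower in Rmst/Pcdh15 (14.4% of 10150 genes passed). Gata4 held 685, 717 and 706 CPM in Rmst/Pcdh15 and 472, 450 and 511 CPM in Ctnna2/Abi3bp (log2 0.58 ± 0.09, adjusted p = 0.000188, edgeR). Mef2c held 173, 193 and 178 CPM against 258, 276 and 410 CPM (log2 -0.72 ± 0.13, adjusted p = 0.000517), and Meis2 859 ± 56.8 against 1245 ± 166 CPM (log2 -0.51 ± 0.10, adjusted p = 0.00128, edgeR). None of these pools overlapped. Tbx20 held 2863 ± 168 against 3728 ± 230 CPM (log2 -0.36 ± 0.08, adjusted p = 0.00549, edgeR), a call that did not pass without pool 3 (adjusted p = 0.121) or without the pool as a replicate block (adjusted p = 0.227). Both clusters stood above every other class in Tbx20. Gata6, at 404 ± 13.6 and 399.9 ± 48.0 CPM, did not pass. The partners Gata3 (119.6 CPM, log2 3.08) and Tbx3 (82.1 CPM, log2 1.95) were higher in Rmst/Pcdh15.

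Among the 3 smooth muscle-like clusters, Clca3a2/Pi15 (1742 nuclei), Ptprz1/Mylk4 (1159) and the cycling D030068K23Rik/Neil3 (340), 16 of 24 tests on 8 factors passed. Clca3a2/Pi15 had 5 of 8 smooth muscle markers raised beside 4 of 8 pericyte markers, and its 10 leading genes held 0 smooth muscle markers and 1 neuron marker, Syt1. With finer clusters, at resolution 2, a cluster of 646 nuclei led by Clca3a2 and Pi15 was named pericyte-like. In the cycling cluster 22.1% of 10447 genes passed. The count of 16 was 7 without the replicate block, 10 with DESeq2 and 9 without pool 1. Without the cycling cluster the other 2 were compared directly, and 7 of 8 factors passed. The share of all genes that passed in that comparison was not counted. The differences given are those that kept their call under each of these settings. Their log2 values are from the fit of all 3 clusters, each cluster against the mean of the other 2. Mef2c held 896, 915 and 939 CPM in Ptprz1/Mylk4 and 530, 504 and 598 CPM in Clca3a2/Pi15. It was 0.65 ± 0.07 higher in Ptprz1/Mylk4 (adjusted p = 1.32e-10, edgeR; 21.4% of 10447 genes passed) and lower in Clca3a2/Pi15 at -0.61 ± 0.07 (28.2% of genes passed). Gata4 was lower in Ptprz1/Mylk4, by 1.19 ± 0.14 on the log2 scale against the mean of the other 2 (adjusted p = 4.47e-09, edgeR). It held 38.8, 43.7 and 55.5 CPM there, beside 101, 106 and 133 CPM in Clca3a2/Pi15. Against the mean of the other 2, Gata6 was higher in Clca3a2/Pi15 (log2 0.48 ± 0.07, adjusted p = 5.19e-07, edgeR), as was Meis2 (log2 0.67 ± 0.07, adjusted p = 4.38e-11, edgeR). Gata6 held 587 ± 55.1 CPM there beside 396 ± 32.2 in Ptprz1/Mylk4, and Meis2 984 ± 97.3 beside 583 ± 56.9 CPM.

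**Figure D5:**
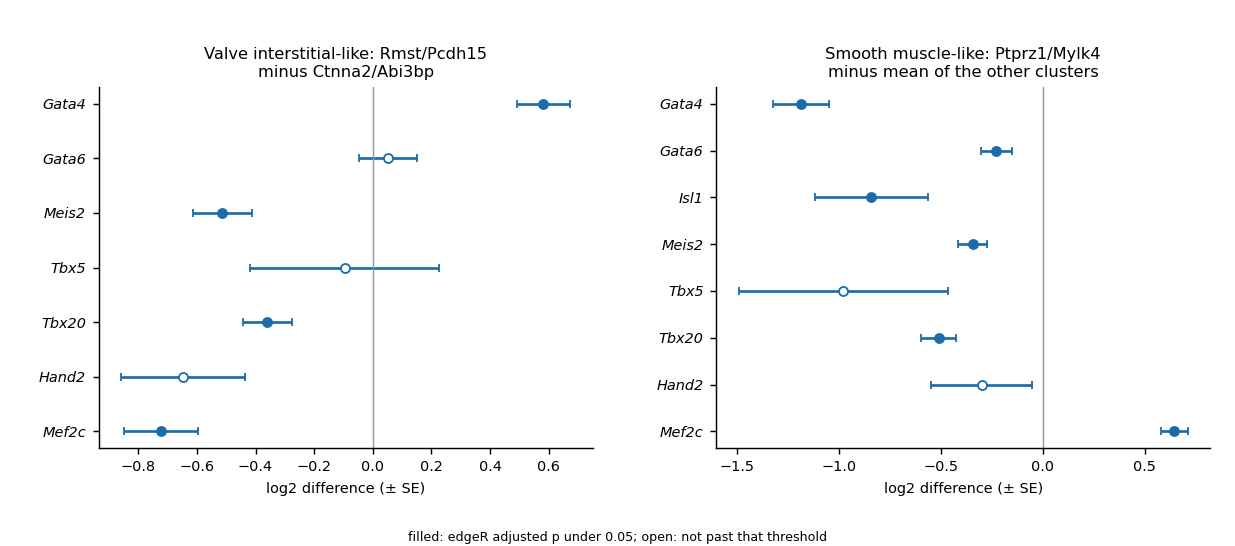
Log2 difference with its standard error (x axis) of each tested factor (y axis) between the 2 valve interstitial-like clusters (left) and between Ptprz1/Mylk4 and the mean of the other smooth muscle-like clusters (right), where filled symbols passed the edgeR test. Gata4 is 0.58 higher in Rmst/Pcdh15 and Mef2c 0.65 higher in Ptprz1/Mylk4.

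In the fibroblast-like class, the cycling Aspm/Neil3 cluster (183 nuclei) was compared with Ebf2/Abca8a (933 nuclei), and 2 of 6 factors passed (19% of 8715 genes). Tbx20 held 2104 ± 26.6 against 1455 ± 180 CPM (log2 0.57 ± 0.11, adjusted p = 0.000274, edgeR). Gata4 held 614 ± 108 against 436 ± 26.4 CPM (log2 0.51 ± 0.12, adjusted p = 0.00401), and did not pass without the replicate block (adjusted p = 0.0735) or with DESeq2 (adjusted p = 0.0608). Gata6, Meis2, Mef2c and Hand2 did not pass.

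The genes with the most similar pattern over the 30 sums of class and pool, by Pearson r of log2(CPM + 5) among genes with a mean of at least 20 CPM, are given as a description without a test, since the sums share pools and depth. Tbx20 was most like Rapgef4 (r 0.89), Angpt1 (r 0.88) and Fbn2 (r 0.87). Gata4 was most like Hdnr (r 0.90), C430049B03Rik and Tusc3, Gata6 like Igf2bp2 (r 0.90), Gm46583 and Erlec1, and Gata5 like LOC118567855 (r 0.89), Adgrg6 and Ptprt. Nkx2-5 had the lowest likeness, to the cardiac genes Ankrd1 (r 0.74) and Tnni3 (r 0.72) and to Coq9, with its low counts. Isl1 was most like Tef (r 0.82), Pxylp1 and Hand2os1, Meis2 like Nfib (r 0.96), Ghr and Ttc3, and Tbx5 like Adk (r 0.89), Fam184a and Plekha6. Hand2 was most like Lama3 (r 0.81), Hand2os1 and Pon3, and Mef2c like Peak1 (r 0.88), Dgkd and Map3k20. These names depend on the scale: with 1 CPM added in place of 5, 21 of the 30 stayed, with 0 of 3 for Hand2 and 1 of 3 for Mef2c, and 24 stayed when a mean of 5 CPM was enough.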

How the data were processed

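RNA in nuclei was measured in 3 pools with the gene expression part of the 10x Multiome kit. The authors deposited UMI counts per gene and nucleus, made with Cell Ranger 7.1.0 per the file headers and on GRCm39 per the submitters' processing notes, which also name Cell Ranger 7.0.1. The intron and strand settings of the counting are not given in the sources used here. The matrices held 10580, 5949 and 4611 nuclei and 96513814 UMIs.

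Nuclei with at least 1000 UMIs and at most 5% mitochondrial UMIs were kept. The automatic scrublet threshold marked no nucleus, so the highest scores, 0.8% per 1000 deposited nuclei, were removed as likely doublets (598, 155 and 138 nuclei). After log-normalisation to a total of 10000, clusters came from 2000 variable genes, 30 principal components, 15 neighbours and leidenalg 0.10.2 at resolution 1 (scanpy 1.11.5, Python 3.11.15). Naming a cluster took 3 or more markers of a cell type, each seen in 10% or more of the cluster and 2-fold or more above the rest with 5 CPM added to both.

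Counts were summed per pool and class, with at least 20 nuclei in every pool. The test was the quasi-likelihood test of edgeR 4.0.16 (in R 4.3.3, with filterByExpr, TMM and the pool as a block) at an adjusted p of 0.05, after tests on simulated data. DESeq2 1.42.0 was an alternative. The pool pairs its classes because they share 1 library. Deviations from class means had a median r of 0.105 between sums of the same pool and -0.0491 between pools. Shares used nuclei thinned to 1000 UMIs. A count of 0 was bounded at 3 UMIs, which covers counting error only.

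The members, lists and tests were chosen with earlier results of these data known. All 10 members were named. Partners were named among the 4 largest rises and 3 largest falls of a class or for a direct relation to a member. For each member the 3 genes most alike were named, and clusters by their 2 leading genes. The erythroid-like class has few nuclei and stayed in the main fit. The chromatin part of the kit was not analysed here, and 1 partner gene is not reported here.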

Additional observations from a re-analysis of the deposited data

Results flagged for a closer look

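Nkx2-5 held 31.5 CPM in the unnamed Igfbp2/Cox6a2 cluster of 820 nuclei, which entered no main test, beside 18.6 CPM in the cardiomyocyte-like class. Its pools held 20.2, 19.7 and 54.6 CPM, so the mean rests on the third pool, which gave 58 of the 820 nuclei. The signal was picked out because it lies in nuclei that no main comparison uses. The cluster held markers of both cardiomyocytes and smooth muscle and stayed unnamed for that reason. Clusters led by some of the same genes were named cardiomyocyte-like with doublets kept (826 nuclei) and at resolution 0.5 (633 nuclei), and entered those fits. At resolution 2 such genes led a cardiomyocyte-like cluster (533 nuclei) and a smooth muscle-like cluster (259 nuclei).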

How the results depend on the processing

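Of 995 values for the 60 differences of a factor between a class and the others, 916 kept their call, 39 no longer passed, 30 newly passed and 10 reversed. A reversal was counted only where the main or the other setting passed, so some values that kept their call changed direction. Meis2 in smooth muscle-like nuclei went from 0.19 to -0.18 without the clusters led by a marker of another class and passed in neither. Of the reversals 9 came with the 5 largest classes only, which leaves the 5 smaller classes out of the others: Gata4 -0.17 and Tbx5 -1.07 in endothelial-like, Gata6 -0.16 and Isl1 -1.44 in valve interstitial-like, Meis2 -0.28 in smooth muscle-like, and Gata5 -1.94, Isl1 -1.01, Meis2 -0.23 and Tbx5 -0.95 in fibroblast-like nuclei. The other was Isl1 in cardiomyocyte-like nuclei, at -0.68 without the 2 clusters led by a marker of another class, where Mef2c in cardiomyocyte-like (-0.38, adjusted p = 0.0185) and Isl1 in mesothelial-like nuclei (1.52, adjusted p = 0.0224) newly passed and 239 pair tests passed in place of 247. With library size alone 260 pair tests passed and with RLE scaling 229. With 5 classes, fibroblast-like nuclei had 9 called factors in place of 4. Without one pool at a time, called factors ranged from 8 to 9 in cardiomyocyte-like, 5 to 6 in valve interstitial-like, 5 to 6 in smooth muscle-like and 3 to 4 in fibroblast-like nuclei. Without the replicate block the counts were 8, 5, 7 and 3, and in endothelial-like and mesothelial-like nuclei 7 and 8. Gata4 in endothelial-like nuclei had an adjusted p of 0.0893 without the lymphatic class and 0.585 at 2% mitochondrial UMIs.

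Of 828 values for clusters within a class, 758 kept their call, 56 no longer passed, 14 newly passed and 0 reversed. The 16 smooth muscle-like calls of 24 tests became 10 with DESeq2, 7 without the replicate block and 9 to 13 without one pool, the lowest without pool 1. Without the cell cycle clusters 8 tests remain, of which 7 passed and no call was lost. The 2 fibroblast-like calls became 1 with DESeq2 and 1 without the replicate block. The cause was not tested. The factors seen per nucleus depend on depth by construction: at 3000 UMIs and without thinning they were 4.06 and 4.76 in cardiomyocyte-like, 2.95 and 3.44 in endothelial-like, 3.67 and 3.84 in valve interstitial-like, 2.92 and 2.91 in smooth muscle-like, 3.32 and 3.54 in fibroblast-like, and 2.87 and 4.49 in mesothelial-like nuclei. The settings with 5 classes, without erythroid-like nuclei, without cell cycle clusters and without clusters led by a marker of another class were chosen after seeing the data, as was the other scaling of pairs and clusters. Clusters within a class were not refitted after re-clustering. Nkx2-5 and Gata5 had the fewest UMIs, and single nuclei place neither.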

Other observations

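Smaller clusters, not compared with others, also held members. A cluster inside the cardiomyocyte-like class, counted in its sums and led by the myoglobin gene Mb and by Myl7, with 70 nuclei and a median of 1664 UMIs, held 166, 119 and 148 CPM of Nkx2-5, and 217 ± 43.7 CPM of Hand2 (SD, n = 3). Those Nkx2-5 values lie above every pool of the 10 tested classes, but rest on 36, 23 and 11 nuclei of low depth. Lymphocyte-like nuclei, 26 in all, held 1186 ± 453 CPM of Mef2c. Melanocyte-like nuclei, 69 in all, held 98.4, 21.1 and 0 CPM of Isl1, so that value rests on the first pool. None of these clusters was tested on its own.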
